A study of Homo sapiens with 12 samples.

Results

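The folate one-carbon cycle enzymes described here are 7 genes taken by symbol from the count table: MTHFD1L, MTHFD2, MTHFD2L and ALDH1L2, whose products work in mitochondria, and MTHFD1, MTR and TYMS, whose products work in the cytosol or, for part of the TYMS and MTHFD1 protein, the nucleus. All 7 were found among the 19504 rows of the table that carry a symbol, and all 7 passed the filter on low counts, as did 12392 genes in all. The study measured mRNA in 2 human acute myeloid leukaemia cell lines, 24 h after AC220 or its solvent was added, in 12 libraries. AC220 (quizartinib) is an inhibitor of the receptor tyrosine kinase FLT3. The 4 groups of 3 libraries were MV4-11 with 5 nM AC220, MV4-11 with DMSO, OCI-AML3 with 5 nM AC220 and OCI-AML3 with DMSO. As background, MV4-11 carries an internal tandem duplication of FLT3 (FLT3-ITD) that keeps the kinase active, and OCI-AML3 carries mutated NPM1 and no FLT3-ITD. Each line is 1 line of its kind, so that differences between them cannot be told apart from other differences between the lines. The labels do not say whether replicates were separate cultures, so the error behind each p-value could be technical in part or whole.

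Folate carries one-carbon units on tetrahydrofolate. In mitochondria, units from serine are oxidised by MTHFD2 or its isozyme MTHFD2L and released as formate by MTHFD1L, or burned to carbon dioxide by ALDH1L2 with formation of NADPH. In the cytosol, MTHFD1 takes up formate and reduces the unit for use by TYMS, which makes thymidylate for DNA, and by MTR, the vitamin B12-dependent methionine synthase, while the formyl form feeds purine synthesis. MTHFD2 is known as an enzyme of embryonic and proliferating cells and is strongly expressed in many tumours.

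The libraries held 11419454 to 13328968 counts in MV4-11 with AC220, 15041493 to 16918761 in MV4-11 with DMSO, 10877198 to 14458640 in OCI-AML3 with AC220 and 13013381 to 13455082 in OCI-AML3 with DMSO. Levels are given as CPM, a count divided by its library's total and expressed on a fixed scale, after adjustment of that total by the trimmed mean of M-values (TMM). The libraries were made from transcript ends, so a level does not grow with transcript length. In bulk RNA, fewer cells of a type and less RNA per cell cannot be told apart. MV4-11 AC220 replicate 1 stood apart, with a chi-square per degree of freedom of 9.56 and 10.6 against the other libraries of its group, which differed from each other by 4.24; both OCI-AML3 libraries numbered 3 also stood apart, at 6.59 to 8.65. Of 8 myeloid marker genes none was at 0 in all libraries of a group, and their summed level was 591 to 625 CPM in MV4-11 with AC220 and 362 to 391 CPM in MV4-11 with DMSO, 573 to 626 CPM in OCI-AML3 with AC220 and 539 to 547 CPM in OCI-AML3 with DMSO. In MV4-11, edgeR at an adjusted p under 0.05 gave 5 of the 8 as higher with AC220 and 1 as lower, beside 31.5% and 26.9% of all genes tested. In MV4-11 with AC220 and with DMSO, CSF1R averaged 58.0 and 12.4 CPM, LYZ 134 and 48.9 CPM and ITGAM 7.05 and 2.52 CPM. CEBPA averaged 277 and 194 CPM, CD33 83.0 and 70.1 CPM, SPI1 43.6 and 39.9 CPM and MPO 8.87 and 9.56 CPM. CD14 had 1 count over the MV4-11 libraries with AC220 and 16 with DMSO. Of 6 lymphoid markers the sum was 27.7 to 34.0 CPM in MV4-11 with AC220, 13.8 to 14.7 CPM in MV4-11 with DMSO, 0.722 to 1.15 CPM in OCI-AML3 with AC220 and 1.16 to 2.10 CPM in OCI-AML3 with DMSO. Most of the lymphoid sum in MV4-11 was NKG7, at 25.5 CPM with AC220 and 12.1 CPM with DMSO. The T-cell marker CD3E was at 0 in all 4 groups. Sums of 4 erythroid and megakaryocytic markers were at most 2.79 CPM, those of 5 epithelial and stromal markers at most 20.2 CPM, both highest in MV4-11 with AC220, and HBA1, HBB and EPCAM were at 0 throughout. KRT8 made up most of the epithelial and stromal sum in MV4-11 with AC220, at 15.9 CPM. The part of these marker changes in the results below was not tested.

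The sequence before the transcription start is shown for the members whose fall with AC220 in MV4-11 or whose compartment the results turn on. RefSeq (GRCh38.p14) gave 11 promoters for 6 of the 7 members, ALDH1L2 being the one not matched. Windows from 250 bases before to 50 bases after the start were searched on both strands for TGATGNAA (an element bound by CEBP-ATF dimers such as those of ATF4), CACGTG (the E-box bound by MYC and related factors) and TTTNNCGC (an E2F element). Capitals mark the matches, and the 250 bases before the start are printed 5′ to 3′ on the plus strand, the strand of all 4 genes.
MTHFD1L, chr6:150866236-150866485, plus strand: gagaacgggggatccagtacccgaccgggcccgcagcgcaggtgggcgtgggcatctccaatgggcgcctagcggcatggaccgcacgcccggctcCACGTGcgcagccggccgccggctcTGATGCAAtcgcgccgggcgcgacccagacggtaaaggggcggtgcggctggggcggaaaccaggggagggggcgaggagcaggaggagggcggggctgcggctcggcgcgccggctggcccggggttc
MTHFD2, chr2:74198365-74198614, plus strand: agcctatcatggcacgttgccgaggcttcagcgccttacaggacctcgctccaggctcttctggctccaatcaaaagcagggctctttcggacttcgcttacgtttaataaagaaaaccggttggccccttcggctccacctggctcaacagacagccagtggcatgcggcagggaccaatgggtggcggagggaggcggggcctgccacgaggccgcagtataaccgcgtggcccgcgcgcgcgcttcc
MTHFD1, chr14:64388103-64388352, plus strand: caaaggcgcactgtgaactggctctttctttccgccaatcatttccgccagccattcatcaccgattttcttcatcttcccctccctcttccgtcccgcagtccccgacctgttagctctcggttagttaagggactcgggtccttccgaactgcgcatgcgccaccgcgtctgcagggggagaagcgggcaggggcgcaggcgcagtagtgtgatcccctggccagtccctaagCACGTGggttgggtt
TYMS, chr18:657403-657652, plus strand: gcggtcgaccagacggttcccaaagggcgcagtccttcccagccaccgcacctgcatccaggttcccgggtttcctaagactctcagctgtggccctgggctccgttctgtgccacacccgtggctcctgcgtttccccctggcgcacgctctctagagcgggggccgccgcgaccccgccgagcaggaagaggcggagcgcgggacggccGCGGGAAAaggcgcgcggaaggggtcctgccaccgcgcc
MTHFD1L held TGATGCAA at position -129 and CACGTG at -154 from the start printed. RefSeq gives it 4 starts: the same letters stand at -90 and -115 from another, at 24 and -1 from the third, and the window of the fourth holds no match. MTHFD1 held CACGTG at -15. TYMS held GCGGGAAA, the E2F element read on the other strand, at -39. The windows of MTR, not printed, held the same letters, at -150 and -161 from its RefSeq starts. No match was found in the windows of MTHFD2 and MTHFD2L. Of 35116 RefSeq promoters of the same length, 3.62% held TGATGNAA, 7.26% CACGTG and 6.89% TTTNNCGC, and of 27305 genes with any number of starts, 4.46%, 8.77% and 8.23% held them in at least 1 window. A match describes these letters and shows no binding.

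The first question was how the enzymes differed between AC220 and DMSO in MV4-11. With AC220 all 7 members were lower in MV4-11 than with DMSO, from 1.49-fold lower for MTHFD2L to 21.6-fold lower for ALDH1L2, and in no member did the 2 groups of libraries overlap. In the quasi-likelihood test of edgeR, with p-values adjusted by the Benjamini-Hochberg method across the 12392 genes, all 7 passed the threshold of 0.05 as lower. Of all genes tested, 58.3% passed it in this comparison, 31.5% as higher and 26.9% as lower, while 28.9% were lower and 33.5% higher without overlap between groups. The median log2 change was -2.16 over the 4 mitochondrial members and -1.78 over the 3 cytosolic members, against 0.07 over all genes tested.

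MTHFD2, the mitochondrial dehydrogenase and cyclohydrolase, was the most abundant member in all 4 groups. It stood at 102, 90.3 and 83.7 CPM in MV4-11 with AC220 and at 407, 386 and 432 CPM with DMSO, 92.0 ± 9.26 against 408 ± 23.2 CPM (SD, n = 3 each). Every library with AC220 lay far below every library with DMSO. Its level was at the 86.9th percentile of tested genes with AC220 and the 97.6th with DMSO. In OCI-AML3 it stood at 381, 423 and 439 CPM with AC220 and at 340, 334 and 378 CPM with DMSO, groups that did not overlap but lay close together.

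MTHFD1L, which releases formate from the formyl form, fell by a like amount. It had 22.3, 16.4 and 15.7 CPM in MV4-11 with AC220, against 77.5, 83.8 and 84.1 CPM with DMSO. Its log2 change of -2.16 (SE 0.104, adjusted p by edgeR 5.91e-17) equals a 4.48-fold fall, and that of MTHFD2 was -2.15 (SE 0.0762, edgeR adjusted p 4.58e-20). The within-library ratio of MTHFD2 to MTHFD1L was 5.12 in MV4-11 with AC220 and 4.99 with DMSO as geometric means, with ranges that overlapped.

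ALDH1L2, the formyl-tetrahydrofolate dehydrogenase of mitochondria, had the steepest fall. It had 27, 21 and 14 counts in the 3 MV4-11 libraries with AC220, or 2.05, 1.95 and 1.27 CPM, against 36.5, 38.9 and 40.1 CPM with DMSO. The MV4-11 libraries with AC220 were thus near the low end of what was measured, at the 13.7th percentile of tested genes. In OCI-AML3 it had 39.8, 41.4 and 39.3 CPM with AC220 and 40.7, 43.1 and 41.8 CPM with DMSO, so that the MV4-11 group with AC220 was the only one of the 4 to be far from the others. With 62 counts in all behind the low group, its log2 change was -4.43 (SE 0.142, edgeR adjusted p 4.98e-21), with an SE above that of MTHFD2. For each unit of ALDH1L2, MTHFD2 was present 53.3 times in MV4-11 with AC220 and 10.6 times with DMSO, and 10.3 times in OCI-AML3 with AC220 and 8.38 times with DMSO.

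MTHFD2L, the isozyme of MTHFD2 and the member with the smallest fall in MV4-11, had 13.2, 10.4 and 12.9 CPM with AC220 and 17.8, 20.0 and 16.8 CPM with DMSO. The log2 change was -0.58 (SE 0.144, adjusted p by edgeR 0.00107). MTHFD2 exceeded it 7.57-fold in MV4-11 with AC220 and 22.5-fold with DMSO, and the ranges of that ratio did not overlap. In OCI-AML3 the excess was 43.9-fold with AC220 and 36.6-fold with DMSO.

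**Figure D1:**
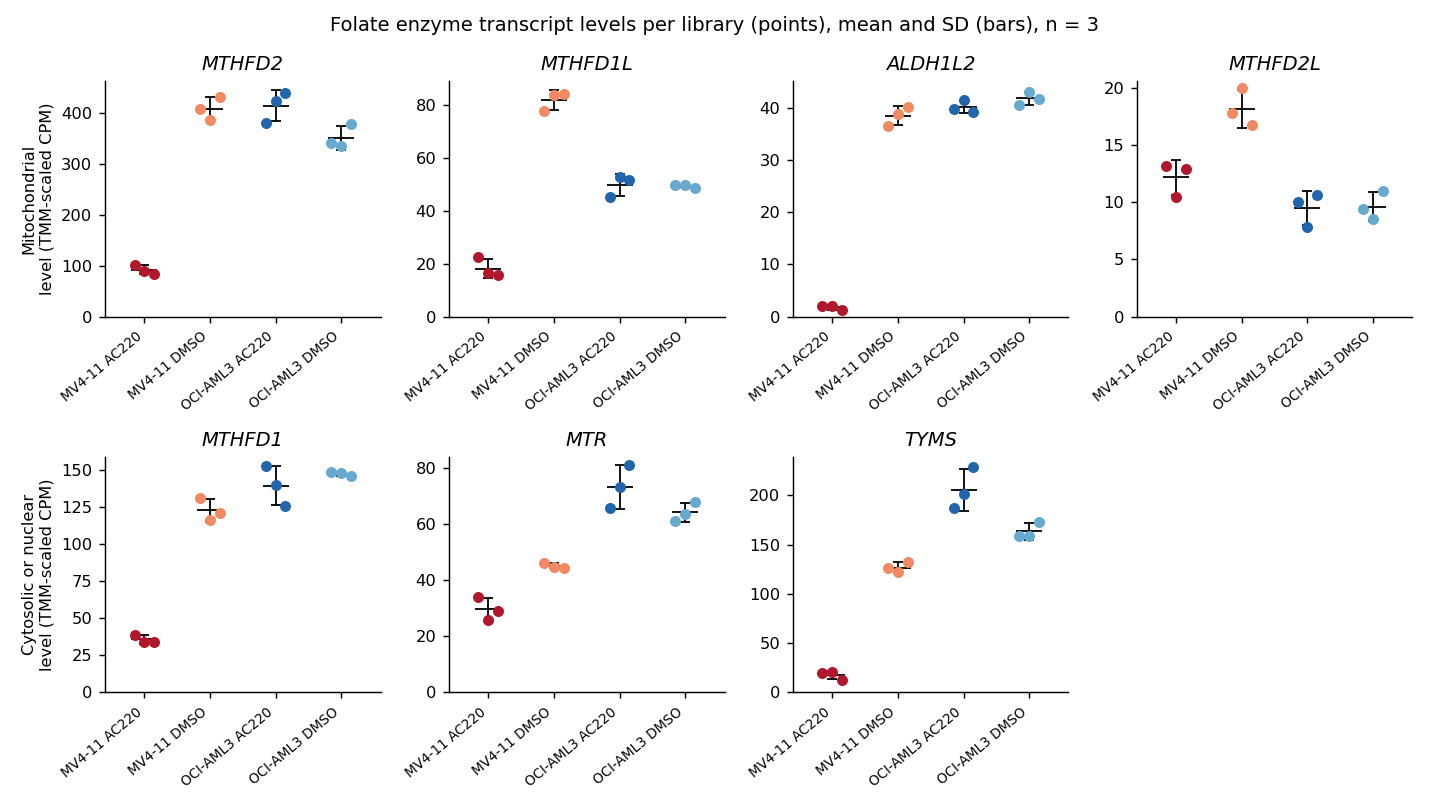
Level of each member in every library (TMM-scaled CPM, linear axis from 0), with the 4 groups side by side; points are libraries and bars the mean and SD of 3. In every panel the MV4-11 libraries with AC220 lie below the MV4-11 libraries with DMSO, by 1.49-fold (MTHFD2L) to 21.6-fold (ALDH1L2).

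Among the cytosolic members, MTHFD1, which joins the synthetase, cyclohydrolase and dehydrogenase steps in a single protein, had 38.9, 34.1 and 34.1 CPM in MV4-11 with AC220 and 131, 116 and 121 CPM with DMSO. The groups were apart by a log2 change of -1.78 (SE 0.0815, edgeR adjusted p 1.81e-17). TYMS, the thymidylate synthase, had 19.3, 20.3 and 12.5 CPM with AC220 and 126, 122 and 133 CPM with DMSO in MV4-11, a 7.27-fold fall (log2 change -2.86, SE 0.121, edgeR adjusted p 7.57e-14) second among the 7 to that of ALDH1L2. MTR, the methionine synthase, had 34.0, 25.9 and 29.1 CPM with AC220 and 46.1, 44.9 and 44.4 CPM with DMSO, a 1.52-fold fall (edgeR adjusted p 4.57e-06). MTR and TYMS thus changed places in MV4-11: TYMS stood at 0.577 times MTR with AC220 and at 2.81 times MTR with DMSO, with no overlap. In OCI-AML3 the ratio was 2.80 with AC220 and 2.54 with DMSO.

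In OCI-AML3, TYMS had 187, 201 and 228 CPM with AC220 and 159, 159 and 173 CPM with DMSO. MTR had 65.7, 73.2 and 81.3 CPM with AC220 and 61.1, 63.8 and 67.9 CPM with DMSO. In both genes, as in MTHFD2, replicate 3 was the highest library of each group, and the libraries of MTR overlapped between groups while those of TYMS did not. MTHFD1 had 153, 140 and 126 CPM with AC220 and 149, 148 and 146 CPM with DMSO, and MTHFD1L had 45.0, 52.8 and 51.5 CPM with AC220 and 49.6, 49.8 and 48.8 CPM with DMSO. MTHFD2L, at 10.0, 7.85 and 10.6 CPM with AC220 and 9.40, 8.51 and 11.0 CPM with DMSO, was the least abundant member in this line. For these last 3 genes the groups overlapped, and the libraries with DMSO lay inside the range of those with AC220 for MTHFD1 and MTHFD1L.

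Across the 4 groups, MV4-11 with AC220 had the lowest mean of 6 members, all but MTHFD2L. For MTHFD1L the highest group was MV4-11 with DMSO, followed by both OCI-AML3 groups, which overlapped. For MTHFD2 the highest was OCI-AML3 with AC220, which overlapped with MV4-11 with DMSO, and for MTHFD2L it was MV4-11 with DMSO, with the other groups overlapping their neighbours in the order. TYMS was the one member whose 4 groups were all apart, from 206 ± 21.0 CPM in OCI-AML3 with AC220 through OCI-AML3 with DMSO and MV4-11 with DMSO to 17.4 ± 4.22 CPM in MV4-11 with AC220 (SD, n = 3 each).

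In OCI-AML3, edgeR called 0 of 7 members, where 3.95% of all genes tested were called, 3.44% as higher and 0.508% as lower. At an unadjusted p under 0.05 there were 3 of 7, all higher with AC220. Of all genes tested, 20.8% reached it, 13.2% as higher and 7.59% as lower. The 3 members were MTHFD2 (log2 change 0.24, 95% interval 0.09 to 0.39), TYMS (0.33, interval 0.12 to 0.54) and MTR (0.19, interval 0.01 to 0.38). Their adjusted p by edgeR was 0.0526, 0.0662 and 0.217. DESeq2 called 1 member, TYMS, beside 6.60% of all genes tested, and limma on the deposited values called 0, beside 1.07%. Limma-voom called MTHFD2 and TYMS, and its share over all genes is not given here. Over the 22 alternatives MTHFD2 was called in 9 and TYMS in 7. On leaving out 1 library, the share of all genes called ran from 0.105% to 9.19%. Without both OCI-AML3 libraries numbered 3, the log2 change was 0.25 for MTHFD2 and 0.29 for TYMS. Both genes were called without MV4-11 AC220 replicate 1 (beside 9.19% of all genes tested) or OCI-AML3 AC220 replicate 1 (7.64%). They were also called without MV4-11 AC220 replicate 3, for which the share over all genes is not given here. Without OCI-AML3 DMSO replicate 3, MTHFD2 alone was called, beside 8.06% of all genes. The shares given for these runs were above the 3.95% of the fit to all 12 libraries. MTHFD2 and TYMS were higher with AC220 without overlap between groups, as were 14.2% of all genes tested (9.72% were lower without overlap). The 95% intervals of the other 4 members were -0.18 to 0.21 for MTHFD1L, -0.34 to 0.29 for MTHFD2L, -0.25 to 0.13 for ALDH1L2 and -0.23 to 0.07 for MTHFD1. None of these intervals reached the log2 change estimated in MV4-11, but that of MTHFD2L overlapped its interval there, -0.87 to -0.28.

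**Figure D2:**
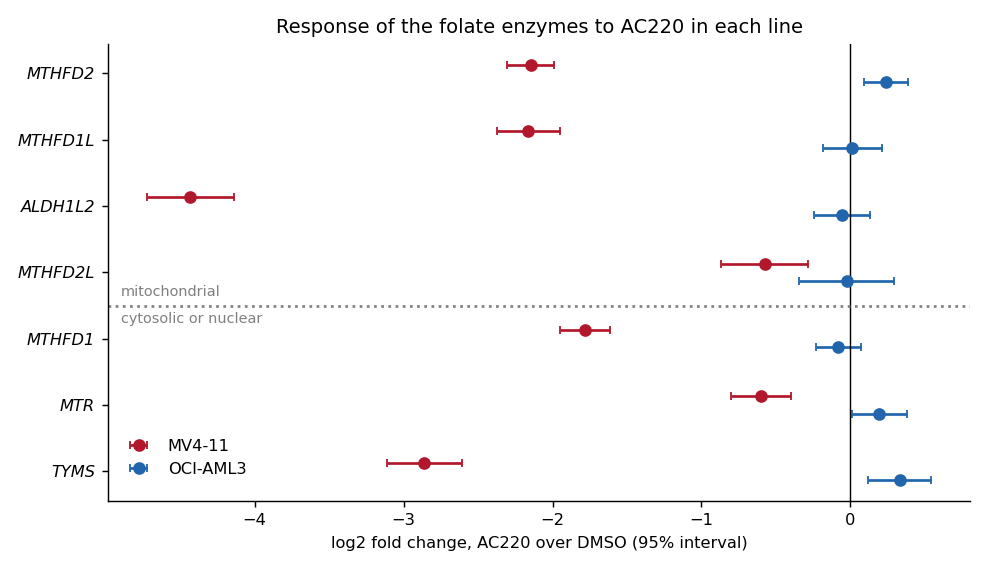
Log2 fold change of each member, AC220 over DMSO, with its 95% interval, in MV4-11 and OCI-AML3. All 7 values in MV4-11 lie below 0, from -0.58 to -4.43, while those in OCI-AML3 run from -0.08 to 0.33.

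The difference between the 2 responses was tested as an interaction in the same fit. All 7 members were called lower in MV4-11 than in OCI-AML3 in their response, beside 46.7% of all genes called, 23.0% higher and 23.7% lower. The largest differences on the log2 scale were -4.37 for ALDH1L2, -3.19 for TYMS and -2.39 for MTHFD2, and the smallest was -0.55 for MTHFD2L (SE 0.212, adjusted p by edgeR 0.0336). The interaction of MTHFD2L was no longer called when any of MV4-11 DMSO replicate 2, MV4-11 AC220 replicate 2, OCI-AML3 DMSO replicate 1 or 2, or OCI-AML3 AC220 replicate 1 or 3 was left out, at log2 values of -0.45 to -0.53. Limma on the deposited values (adjusted p 0.056) and DESeq2 (0.0519) did not call it either, nor was it called without both OCI-AML3 libraries numbered 3 (0.054) or at an adjusted p under 0.01, which makes 10 of 21 alternatives.

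Between the lines under DMSO, the members differed in both directions. MTHFD1L, MTHFD2 and MTHFD2L were higher in MV4-11 than in OCI-AML3, by 0.73, 0.22 and 0.92 on the log2 scale, while the 3 cytosolic members MTHFD1, MTR and TYMS were lower, at -0.26, -0.51 and -0.37. By edgeR, 3 members were called higher and 3 lower, in a comparison where 65.5% of all genes were called, 32.1% higher and 33.4% lower. The genes around the members, described further below, did not divide by compartment in this way. Of 8 tested around the mitochondrial enzymes, 2 were called higher and 3 lower in MV4-11, and of 4 around the cytosolic enzymes 0 were called. ALDH1L2 was not called (log2 difference -0.12, 95% interval -0.31 to 0.07, edgeR adjusted p 0.251), although its groups did not overlap. All 7 members had groups without overlap, 3 higher and 4 lower in MV4-11, as had 35.4% and 36.5% of all genes tested. The call of MTHFD2 was lost without MV4-11 DMSO replicate 3 (log2 difference 0.18, adjusted p 0.0615), and that of TYMS in limma on the deposited values (-0.32, adjusted p 0.0567).

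Under AC220, 6 of the 7 members were lower in MV4-11. MTHFD1L, MTHFD2, ALDH1L2, MTHFD1, MTR and TYMS lay below OCI-AML3 without overlap, from -1.30 for MTR to -4.49 for ALDH1L2, and MTHFD2L was higher by 0.37 (SE 0.154, adjusted p by edgeR 0.0331). In this comparison 76.2% of all genes were called, 36.7% higher and 39.5% lower, and 39.1% were lower and 36.4% higher without overlap. The call of MTHFD2L was lost without MV4-11 AC220 replicate 1 (0.34), without MV4-11 AC220 replicate 3 (0.37) and without OCI-AML3 AC220 replicate 2 (0.24), and its ranges in the 2 lines overlapped. MTHFD1L, higher in MV4-11 under DMSO, averaged 18.1 ± 3.64 CPM in MV4-11 and 49.8 ± 4.15 CPM in OCI-AML3 under AC220 (SD, n = 3 each).

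Summed by compartment, the 4 mitochondrial members reached 124 ± 13.7 CPM in MV4-11 with AC220 and 547 ± 23.3 CPM with DMSO, 514 ± 34.0 CPM in OCI-AML3 with AC220 and 452 ± 24.3 CPM with DMSO. The 3 cytosolic members reached 82.7 ± 8.56 CPM in MV4-11 with AC220 and 295 ± 10.6 CPM with DMSO, 419 ± 15.5 CPM in OCI-AML3 with AC220 and 375 ± 10.3 CPM with DMSO (SD, n = 3 each). The mitochondrial sum was therefore 1.50 times the cytosolic sum in MV4-11 with AC220 and 1.86 times with DMSO, and 1.23 times in OCI-AML3 with AC220 and 1.20 times with DMSO. The ratio in MV4-11 was lower with AC220 in all 3 libraries, without overlap, and still above every library of OCI-AML3. Most of the mitochondrial sum is MTHFD2, which alone made up 44.5% of the 7 members' level in MV4-11 with AC220, 48.5% in MV4-11 with DMSO, 44.4% in OCI-AML3 with AC220 and 42.4% in OCI-AML3 with DMSO. The ratio of MTHFD1L to MTHFD1, the enzymes that release and take up formate, was 0.503 in MV4-11 with AC220 and 0.667 with DMSO, and 0.357 in OCI-AML3 with AC220 and 0.335 with DMSO. That of MTHFD2 to MTHFD1 was 2.58 in MV4-11 with AC220 and 3.33 with DMSO, and 2.97 in OCI-AML3 with AC220 and 2.38 with DMSO. For this pair MV4-11 with AC220 (2.46 to 2.65) was not above OCI-AML3. It overlapped OCI-AML3 with AC220 (2.49 to 3.49) and with DMSO (2.26 to 2.59).

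**Figure D3:**
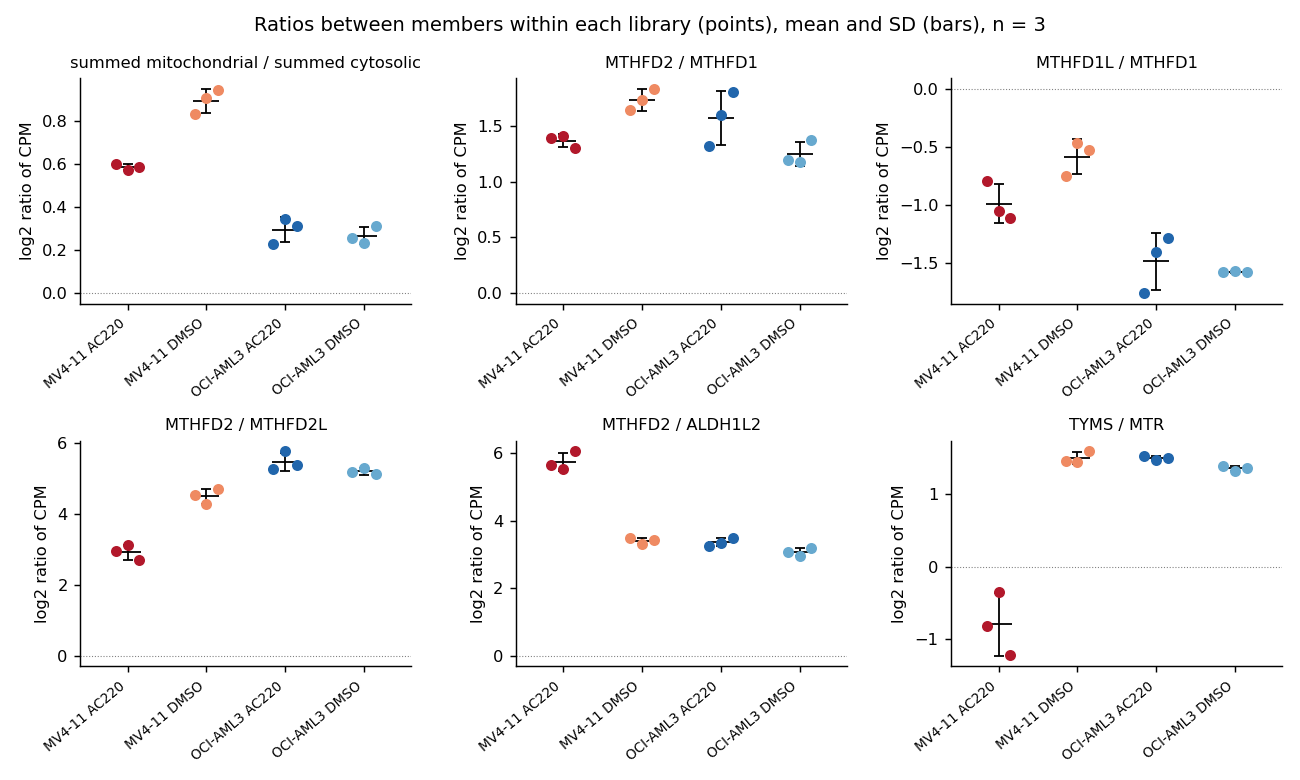
Within-library log2 ratios of members in each of the 12 libraries, by group; points are libraries and bars the mean and SD of 3. The ratio of summed mitochondrial to summed cytosolic members is 0.58 in MV4-11 with AC220 and 0.89 with DMSO, and 0.29 and 0.27 in OCI-AML3 with AC220 and with DMSO.

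MV4-11 AC220 replicate 1 had the highest level of its group for 6 of the 7 members, the exception being TYMS. All 7 calls in MV4-11 were kept without that library, as in all 22 alternatives tried. Reads of genes on the opposite strand could not be told apart where their transcripts overlap, since the strand setting of the counting was not given in the sources used here. In GENCODE v29, ENOSF1 overlaps all 3 last exons of TYMS and SLC4A5 1 of 3 of MTHFD2. AC006030.1, a protein-coding gene, overlaps all 3 last exons of MTHFD2, and the antisense gene AL138733.1 overlaps 3 of 9 of MTHFD1L; neither had a row in the count table. ENOSF1 moved with TYMS in MV4-11 (log2 change -1.36) and had a log2 change of 0.01 in OCI-AML3, while SLC4A5 moved with MTHFD2 in MV4-11 (-1.92) and had a log2 change of 0.34 in OCI-AML3 (edgeR adjusted p 0.0583), the same sign as MTHFD2 there. C12orf45, which overlaps both last exons of ALDH1L2, had a log2 change of -0.14 (adjusted p by edgeR 0.306) in MV4-11. ZBTB25, which overlaps 3 of 7 last exons of MTHFD1, changed by -0.58. The annotation also names 7 pseudogenes after MTHFD2, 2 after TYMS and 1 after MTHFD1, among which reads may be divided.

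The rest of the pathway was described from 5 lists of 36 genes, of which 30 were tested. In MV4-11 with AC220, 15 of the 30 were called lower and 5 higher, with a median log2 change of -0.35, where 26.9% of all genes were called lower and 31.5% higher. In OCI-AML3 0 were lower and 6 higher, with a median of 0.11, where 0.508% of all genes were called lower and 3.44% higher. The 0 lower genes in OCI-AML3 compare with 3 by edgeR at an unadjusted p under 0.05 (7.59% of all genes tested) and 0 by DESeq2, limma-voom or limma on the deposited values. The 6 higher genes compare with 11 at an unadjusted p under 0.05 (13.2% of all genes tested), 7 by DESeq2, 7 by limma-voom and 0 by limma on the deposited values. GLDC, DMGDH, ALDH1L1, FTCD, FOLR1 and FOLR3 did not pass the filter, at most 12 counts in a library.

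Around the mitochondrial enzymes, 3 of 8 tested genes were called lower and 1 higher in MV4-11, a share of calls below the 58.3% of all genes. SHMT2, which supplies the mitochondrial units from serine, had 118 ± 10.5 CPM with AC220 and 285 ± 9.32 CPM with DMSO (SD, n = 3 each). SLC25A32, the folate carrier of the inner membrane, changed by -0.48 and DLD, a subunit of the glycine cleavage system, by -0.35. AMT, the folate-dependent subunit of that system, was higher, by 1.24 (SE 0.236). Its other 2 genes were low in MV4-11: GLDC, not tested, had 16 counts over the libraries with AC220 and 22 with DMSO. GCSH, not called, averaged 1.13 and 1.39 CPM. Around the cytosolic enzymes all 4 tested genes were called, 3 lower and 1 higher. GART and ATIC, the formyl-folate users of purine synthesis, changed by -1.14 and -0.86, and MTHFS, which overlaps a readthrough gene, by -0.53. SHMT1, the cytosolic counterpart of SHMT2, was higher by 0.41. Its call was lost without any of MV4-11 DMSO replicate 1 or 2 or AC220 replicate 1 or 3, and that of MTHFS without MV4-11 DMSO replicate 1 or 3 or AC220 replicate 2 or 3.

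Of 5 genes of folate uptake and storage, GGH, which trims folate polyglutamates, had 5.54 ± 1.72 CPM in MV4-11 with AC220 and 41.3 ± 2.11 CPM with DMSO (SD, n = 3 each; log2 change -2.87). The reduced folate carrier SLC19A1 changed by -0.63. SLC46A1, the proton-coupled folate transporter, was higher by 1.50, from 51 counts over the 3 libraries with AC220 and 25 with DMSO. Of 7 genes of cobalamin handling, which serves MTR, MMACHC was lower (-0.63) and LMBRD1 higher (0.37). The call of LMBRD1 was lost without MV4-11 DMSO replicate 1. TCN2, a cobalamin carrier, had 64 counts over the MV4-11 libraries with AC220 and 6 with DMSO. MTRR, the reductase that keeps MTR active, was not called (-0.12, edgeR adjusted p 0.375). All 6 genes of thymidylate and deoxynucleotide supply were called lower in MV4-11, as was TYMS, beside 26.9% of all genes tested. RRM2 and RRM1 of ribonucleotide reductase changed by -3.80 and -1.93, TK1 by -2.72 and DTYMK by -2.08. Of 3 regulators whose known targets include some of these enzymes, E2F1 changed by -3.10 and ATF4 by -1.76. MYC had a log2 change of -0.91 (edgeR adjusted p 0.0645). The part of these regulators in the changes of the enzymes was not tested. MYC was called lower by DESeq2 (adjusted p 0.0268), limma-voom (0.00189) and limma on the deposited values (0.00735), and by edgeR without MV4-11 AC220 replicate 1, at -1.42 (adjusted p 0.0082).

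**Figure D4:**
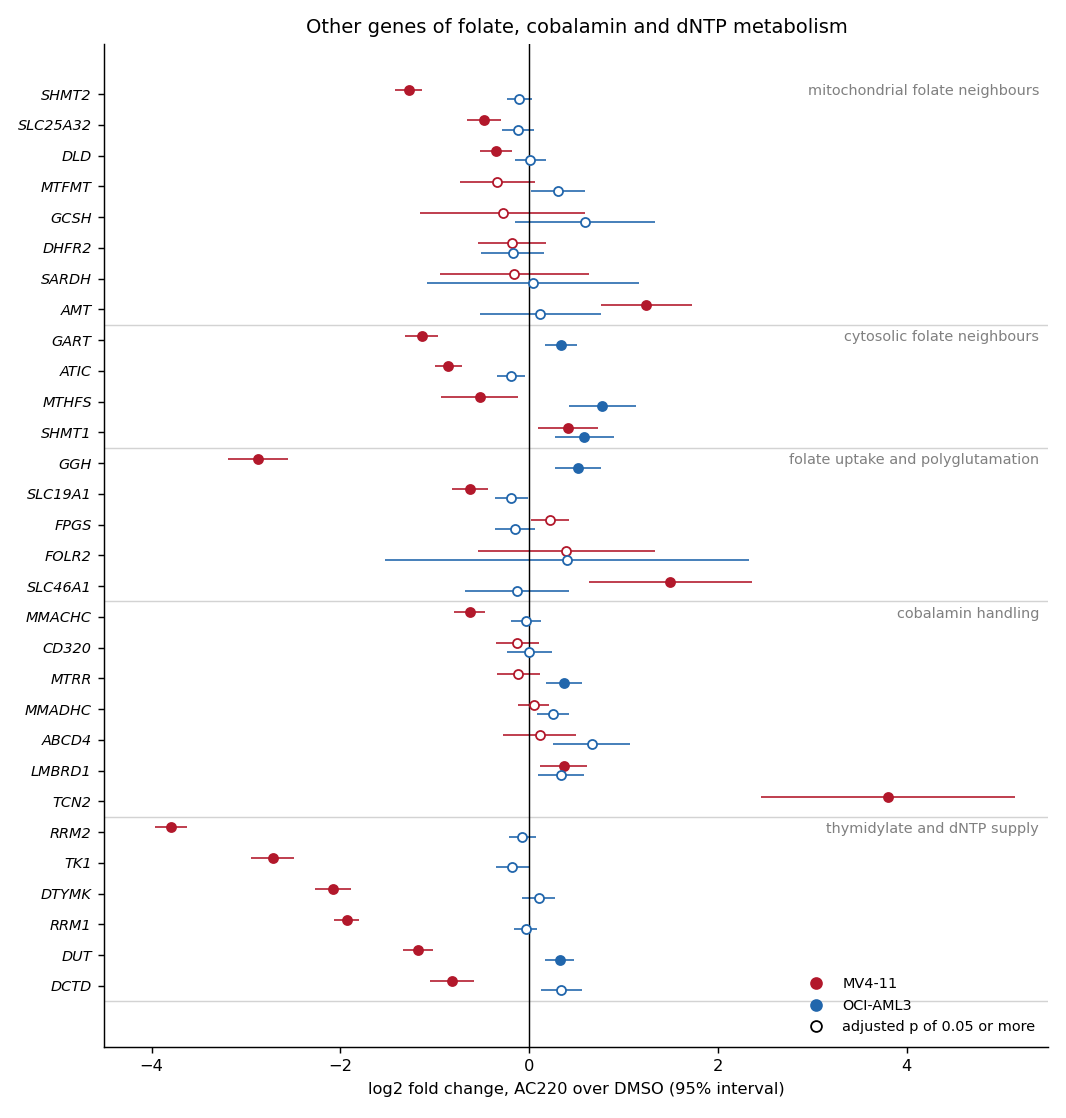
Log2 fold change, AC220 over DMSO, of the other tested genes of the 5 lists, with 95% intervals, in MV4-11 and OCI-AML3; open symbols were not called. TCN2 has no point in OCI-AML3, where it had 1 count with AC220 and 0 with DMSO, and RRM2 at -3.80 and GGH at -2.87 lie lowest in MV4-11.

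In OCI-AML3 the 6 genes called higher with AC220 were SHMT1 (0.58), MTHFS (0.77), GART (0.34), GGH (0.51), MTRR (0.37) and DUT (0.32), the dUTPase that protects DNA from uracil. Leaving out replicate 1 or 2 of OCI-AML3 DMSO, or replicate 3 of OCI-AML3 AC220, ended each of these calls, and limma on the deposited values made none of them (adjusted p 0.0615 to 0.0881). Those of SHMT1, MTHFS and DUT were lost without both OCI-AML3 libraries numbered 3. Those of MTHFS, GART, GGH and MTRR were also lost without OCI-AML3 AC220 replicate 2, and that of SHMT1 without MV4-11 DMSO replicate 2.

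The genes whose pattern over the 12 libraries was most like each member's were found by the root-mean-square difference of centred log2 CPM among 11915 candidates. For ALDH1L2 they were PSAT1 at 0.167, EGR1 at 0.234 and CDC6 at 0.265, and 6 candidates lay within 0.3. For MTHFD1L they were ASS1, SLC7A1 and BCAT1, at 0.161 to 0.175. For MTHFD2 they were DTYMK, MTFR2 and BUB1, at 0.116 to 0.134, and for TYMS they were SGO1, FAM72B and NCAPH, at 0.170 to 0.174. For MTHFD1 they were POLA2, at 0.0916, STMN1 and RRM1. Within 0.3 lay 48 candidates for MTHFD1L, 124 for MTHFD2, 54 for TYMS and 201 for MTHFD1. MTR and MTHFD2L, which changed least, had 1054 and 596 candidates within 0.3, the nearest being SSB, ME2 and MTAP, at 0.0688 to 0.0994, for MTR and SEC61A1, NR2C2AP and URI1, at 0.155 to 0.164, for MTHFD2L. The points of this measure share their libraries and the 4 groups.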

How the data were processed

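Per the labels' protocols, total RNA was read with Lexogen's QuantSeq kit for 3' ends. The submitters' processing notes list the build hg19, HISAT2 2.0.4, cutadapt 1.9.1, featureCounts with Subread 2.0.0, limma 3.42.2 under R 3.6.1, and also FastQC 0.11.6 and bcl2fastq 2.17.1.14. For the annotation, the strand setting and multiply mapped reads, the settings are not given in the sources used here. Whole-number counts for each symbol were deposited by the authors without normalization, together with a second, normalised table on the log2 scale (11075 genes) that served only as an alternative input. The 1 row with no symbol was dropped; it held between 0.00343% and 0.00503% of each total.

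From the counts, edgeR 4.0.16 in R 4.3.3 fitted 1 mean per group to all 12 libraries (filterByExpr, TMM, robust quasi-likelihood F test, 8 residual degrees of freedom); p-values were adjusted by Benjamini-Hochberg across 12392 genes, at a threshold of 0.05. The common biological coefficient of variation was 8.28%. Alternatives used DESeq2 1.42.0, limma 3.58.1, other filters and scalings, a replicate block and the omission of each library. A count of 3 amounts to 0.174 to 0.279 CPM. Intervals come from edgeR's estimate of the spread between libraries. Figures were drawn with matplotlib 3.10.9.

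The members and the lists were chosen with earlier results of these data known. Besides the members, the text names up to 3 genes in each direction per list by smallest adjusted p in MV4-11, genes that go against their list, the 3 regulators and the 3 most alike genes of a member. The genes called in OCI-AML3 and those on the opposite strand were named after their values were seen. Some genes of the lists are not reported here. Promoter sequences are from RefSeq; gene overlaps are from GENCODE v29.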

Additional observations from a re-analysis of the deposited data

Results flagged for a closer look

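The response to AC220 differed between MV4-11 and OCI-AML3, by the interaction test in edgeR at an adjusted p of 0.05, for these genes; values are the response in MV4-11 minus that in OCI-AML3 on the log2 scale. For the mitochondrial members the difference was -2.18 for MTHFD1L, -2.39 for MTHFD2, -0.55 for MTHFD2L and -4.37 for ALDH1L2. For the cytosolic members it was -1.70 for MTHFD1, -0.79 for MTR and -3.19 for TYMS. Among mitochondrial neighbours it was 1.12 for AMT, -1.17 for SHMT2, -0.36 for SLC25A32 and -0.37 for DLD. The call of AMT was lost in 7 of 21 alternatives: by limma-voom (1.08), at an adjusted p under 0.01, without MV4-11 AC220 replicate 3 (0.92), without OCI-AML3 DMSO replicate 1 (1.03) or 3 (1.02), without OCI-AML3 AC220 replicate 3 (0.90) and without both OCI-AML3 libraries numbered 3 (0.80). That of DLD was lost without OCI-AML3 AC220 replicate 3 (-0.26) and, as that of SLC25A32 (-0.29), without both numbered 3 (-0.22 for DLD). Among cytosolic neighbours it was -1.48 for GART, -0.66 for ATIC and -1.30 for MTHFS. For folate transport and storage it was 1.63 for SLC46A1, -3.39 for GGH and -0.44 for SLC19A1, and for the cobalamin gene MMACHC it was -0.60. For deoxynucleotide supply it was -3.72 for RRM2, -1.90 for RRM1 and -2.54 for TK1. For the regulators it was -1.57 for ATF4, -2.18 for MYC and -2.89 for E2F1.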

How the results depend on the processing

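No result changed direction while called. In MV4-11 all 7 members kept their calls in 22 of 22 alternatives. In OCI-AML3 the calls over all genes, 489 as reported, were 836 with no filter, 818 by DESeq2, 118 by limma on the deposited values, 764 with a replicate block, 47 at an adjusted p under 0.01, 245 without both libraries numbered 3, and 13 to 1139 on leaving out 1 library (13 without OCI-AML3 DMSO replicate 1, 15 without DMSO replicate 2, 22 without AC220 replicate 3, 116 without AC220 replicate 2, 947 without AC220 replicate 1, 999 without DMSO replicate 3, 1139 without MV4-11 AC220 replicate 1); the cause was not tested. Members called there, 0 as reported, were 2 with no filter, by limma-voom or from the 6 libraries compared, 1 with the stricter filter, by DESeq2 or with the replicate block (MTHFD2, adjusted p 0.0309), and 0 to 2 on leaving out 1 library. Correlations between the deviations of libraries with the same number were -0.12 to -0.08 in MV4-11 and 0.05 to 0.18 in OCI-AML3, all above 0 there; since not all passed 0.1, the numbers were not taken as pairs. Not every OCI-AML3 library correlated best with its own number: DMSO replicate 2 did so with AC220 replicate 1 (0.061, against 0.049). Without ALDH1L2 and MTHFD2L the log2 ratio of mitochondrial to cytosolic members was 0.41 in MV4-11 with AC220, 0.73 in MV4-11 with DMSO, 0.15 in OCI-AML3 with AC220 and 0.092 in OCI-AML3 with DMSO. Depth limits ALDH1L2 in MV4-11 with AC220, SLC46A1 and TCN2.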
